A study of Mus musculus with 18 samples.

Results

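The cytosolic ribosomal protein genes were followed through 18 primary mouse mammary tumours of 4 groups. A gene was included where its symbol in the array annotation has the form of a cytosolic large-subunit (Rpl) or small-subunit (Rps) protein, or is Rplp0, Rplp1 or Rpsa. S6 kinase genes, mitochondrial ribosomal protein genes and pseudogene symbols were left out. The rule found 69 of 16887 measured genes, 43 of the large and 26 of the small subunit, on 75 array features. Rplp2 and the ubiquitin fusion Rps27a are not among the genes analysed here. The rule reads symbols only and no measured value, but the set was chosen with earlier results of these data known.

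Every tumour was labelled FVB, MMTV and Wnt1, so that the Wnt1 label was shared by all groups. A first group carried no other label (Wnt1, n = 6), and the other groups were labelled Wnt1_iFGFR1, Wnt1_iFGFR2 and Wnt1_iR2 (n = 4 each), shortened here to iFGFR1, iFGFR2 and iR2. The labels do not spell out these names and give no age, inducing agent or number of animals. The question, from the series title, was whether Wnt-1 and the FGF receptors act together in tumour formation. MMTV is a viral promoter used to drive transgenes in mammary epithelium, and Wnt1 is a secreted ligand that gives mammary tumours when it is driven there. Each array held tumour RNA (Cy5) and whole-mouse RNA as a common reference (Cy3), and a value is a log2 ratio of tumour to reference, with the direction and the base of the logarithm read from the dyes and the values. A difference between groups is a difference of mean log2 ratios, and a gene is called risen or fallen where its adjusted p by limma was under 0.05. Whether each array stands for its own animal is not labelled. The p-values therefore measure spread between these samples only, and part of that spread may be technical.

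A cytosolic ribosome is built from a small subunit, which reads the messenger RNA, and a large subunit, which joins the amino acids. Its proteins are needed in near-equal amounts, and their messenger RNAs start with a C followed by a run of pyrimidines, the 5′ terminal oligopyrimidine (TOP) sequence, through which growth signalling by mTOR sets their translation. Ribosomal protein output rises in growing epithelium and in many tumours, and several members have jobs outside the ribosome.

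Start-site sequences were taken from RefSeq (GRCm38.p6), where 57 of the 69 genes were matched, 55 by gene ID and 2 by symbol. Each sequence below runs 5′ to 3′ on the coding strand from 40 bases before the annotated start to 20 bases after it. Capitals mark the longest run of 6 or more C or T within 25 bases of the start, the letters in which a TOP sequence would lie. The first 4 genes rose in iR2 against Wnt1 and hold such a run across the start, Rpl19 and Rpsa rose as well and hold none in this window, and Rpl22l1 and Rpl36al fell in the same comparison.
Rps6 (chr4:86857348-86857407, minus strand): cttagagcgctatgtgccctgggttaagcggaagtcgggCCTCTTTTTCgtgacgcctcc
Rpl28 (chr7:4792925-4792984, plus strand): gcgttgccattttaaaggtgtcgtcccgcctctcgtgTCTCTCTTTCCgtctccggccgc
Rps24 (chr14:24490638-24490697, plus strand): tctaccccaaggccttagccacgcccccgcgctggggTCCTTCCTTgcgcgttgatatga
Rps27 (chr3:90213629-90213688, minus strand): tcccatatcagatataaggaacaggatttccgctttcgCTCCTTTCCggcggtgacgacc
Rpl19 (chr11:98026670-98026729, plus strand): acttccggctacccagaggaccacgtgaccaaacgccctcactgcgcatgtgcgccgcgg
Rpsa (chr9:120127726-120127785, plus strand): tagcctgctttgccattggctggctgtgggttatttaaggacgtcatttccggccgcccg
Rpl22l1 (chr3:28805468-28805527, plus strand): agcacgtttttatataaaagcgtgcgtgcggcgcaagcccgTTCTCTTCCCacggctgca
Rpl36al (chr12:69184048-69184107, minus strand): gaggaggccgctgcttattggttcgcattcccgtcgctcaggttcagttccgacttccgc

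The start letters were more frequent among ribosomal protein genes than in the whole promoter table. A run of 6 or more C or T within 25 bases of the start was present in 37 of the 57 matched genes (64.9%) and in 43.9% of the 27025 genes of the table. A C at the annotated start followed by 4 bases that are each C or T, which can lie within such a run, was present in 10 of 57 (17.5%) and in 2.49% of the table. In the full 300 bases (250 before to 50 after the start), CCGGAA on either strand was present in 30 of 57 genes (52.6%) and 15.2% of the table, and GGGCGG on either strand in 34 of 57 (59.6%) and 35.9% of the table. The letters were searched separately, so a base could count in more than one of them. Among the 20 matched genes that rose in iR2 against Wnt1, 15 held a C or T run within 25 bases of the start. Among the 35 that passed in neither direction, 21 did. Such a run need not cover the start. A C at the annotated start followed by 4 bases of C or T was present in 5 of the 20 and 5 of the 35. A match describes these windows and the annotated starts, and a window without the letters says nothing about translation.

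The mean log2 ratio of 8 markers of luminal mammary epithelium lay between 1.61 and 3.42 on every array. These markers speak for epithelial content and do not tell a tumour from normal mammary epithelium. The Wnt1 gene, named in the label that all groups share, was above the reference in each group. Its lowest group mean was 1.42 (iFGFR1) and its highest 1.57 (the Wnt1 group). Fgfr1, the receptor named in the iFGFR1 label, was higher in that group than in Wnt1 by 1.38 (adjusted p = 6.7e-05). Fgfr2 did not pass the test in iFGFR2 (difference -0.53, adjusted p = 0.212) or in iR2 (-0.32, adjusted p = 0.466), so its measured level does not mark those groups. The number in the sample title was higher on every iR2 array than on any other array, so anything that goes with that number and the iR2 label cannot be told apart. The iR2 arrays also had a narrow spread of values. The median absolute deviation of the other genes was 0.392 to 0.438 on the iR2 arrays, 0.396 on Wnt1 replicate 3 and 0.432 to 0.614 on the other 13.

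The median log2 ratio of the 69 genes was highest on the iR2 arrays and on 1 Wnt1 array. It was 0.84, 0.87, 0.99 and 0.70 on the iR2 arrays, 0.39, 0.29, 0.20 and 0.25 on the iFGFR1 arrays, and 0.34, 0.41, 0.32 and 0.30 on the iFGFR2 arrays. In Wnt1 the lowest array median was 0.08, the middle of the group was 0.28 and the highest was 0.66, on replicate 3. The iR2 values thus lay above those of all other arrays, replicate 3 lay next to them, and the other 5 Wnt1 arrays (up to 0.32) overlapped with iFGFR1 and iFGFR2. These are whole-tumour RNA samples, in which more cells of a kind and more RNA per cell cannot be told apart.

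**Figure D1:**
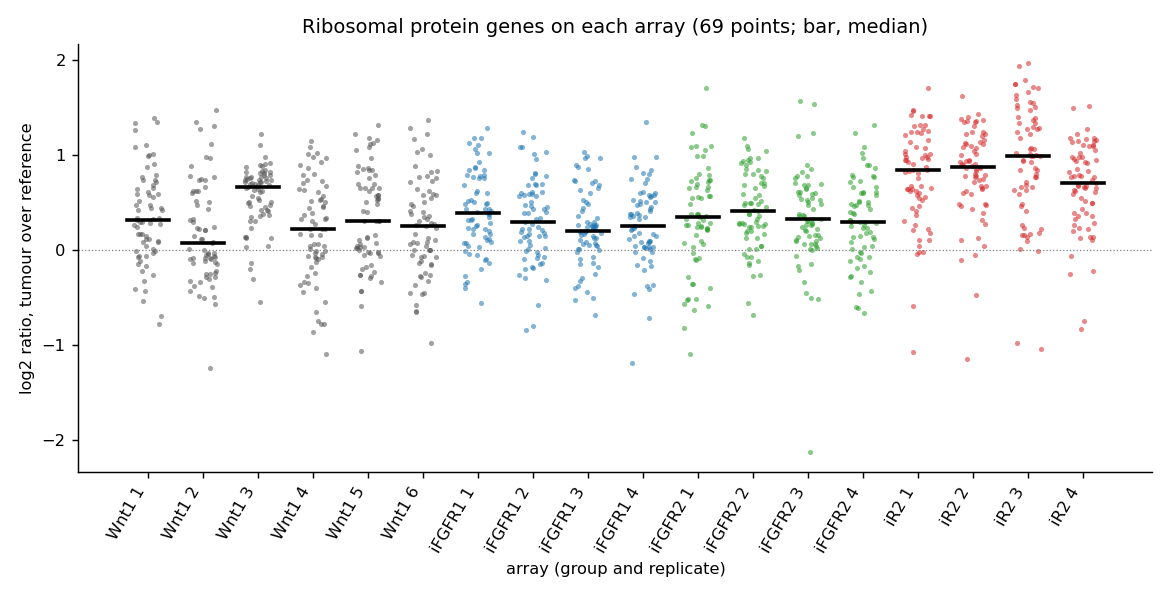
Log2 ratio of tumour to reference (y axis) of each of the 69 ribosomal protein genes on each of the 18 arrays (x axis, group and replicate); a point is a gene, the black bar the median of the 69. The iR2 medians lie between 0.70 and 0.99, Wnt1 replicate 3 stands at 0.66 and the other 13 arrays lie between 0.08 and 0.41.

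Wnt1 replicate 3 stood apart from its group in these genes. It was above the other 5 Wnt1 arrays for 34 of the 69 genes (49.3%), against 23.8% of all genes, and below them for 10 (14.5%), against 22.5% of all genes. Over the 69 genes its profile correlated with the iR2 arrays at 0.71 to 0.82 and with the other Wnt1 arrays at 0.02 to 0.30, while the other 5 correlated with each other at 0.55 to 0.88. Over all other genes the corresponding values were 0.83 to 0.86, 0.76 to 0.79 and 0.84 to 0.92. The other 5 Wnt1 arrays correlated with iR2 at -0.32 to 0.30 over the 69 genes. Over all other genes they did so at 0.80 to 0.90, a range that holds the values of replicate 3 with iR2. All arrays share the same reference RNA, and these correlations across genes are descriptions.

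Replicate 3 also stood outside its group in markers of several cell types. The mean log2 ratio was -1.31 for 7 fibroblast markers (other Wnt1 arrays -2.82 to -2.30, iR2 -2.91 to -2.70) and -0.26 for 5 endothelial markers (other Wnt1 arrays -1.35 to -0.82, iR2 -1.16 to -0.62). For 8 luminal markers it was 3.14, against 1.61 to 2.52 on the other Wnt1 arrays and 2.89 to 2.99 in iR2. The part of these cell types in the ribosomal protein values was not tested. For iR2 against Wnt1, the counts, the differences of the leading genes and the counts of the gene lists are also given without this array.

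A second pair of arrays resembled iR2 less closely. The replicates numbered 2 of iFGFR1 and iFGFR2 correlated with each other at 0.77 over the 69 genes, with iR2 at 0.52 to 0.70, and with the rest of their own groups at 0.15 to 0.34. Rplp1, a protein of the ribosomal stalk, stood at 1.08 and 1.17 on these arrays and at -0.33 to 0.38 on the other 6 of their groups. Rps29, a small zinc-binding protein of the small subunit that was singled out after its values were seen, stood at 1.24 and 0.96 against -0.61 to -0.34. On both genes these 2 arrays fell within or next to the range of iR2, which was 1.04 to 1.54 for Rplp1 and 0.96 to 1.27 for Rps29. Other genes did not follow, such as Rps24 at 0.09 and 0.04 (iR2 from 1.18) and Rpl23a at 0.02 and -0.12 (iR2 from 0.85). Within their groups the 2 arrays were highest for 23 and 31 of the 69 genes and lowest for 22 and 23. Over all other genes they correlated with each other at 0.85, with iR2 at 0.81 to 0.86 and with their own groups at 0.72 to 0.83.

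**Figure D2:**
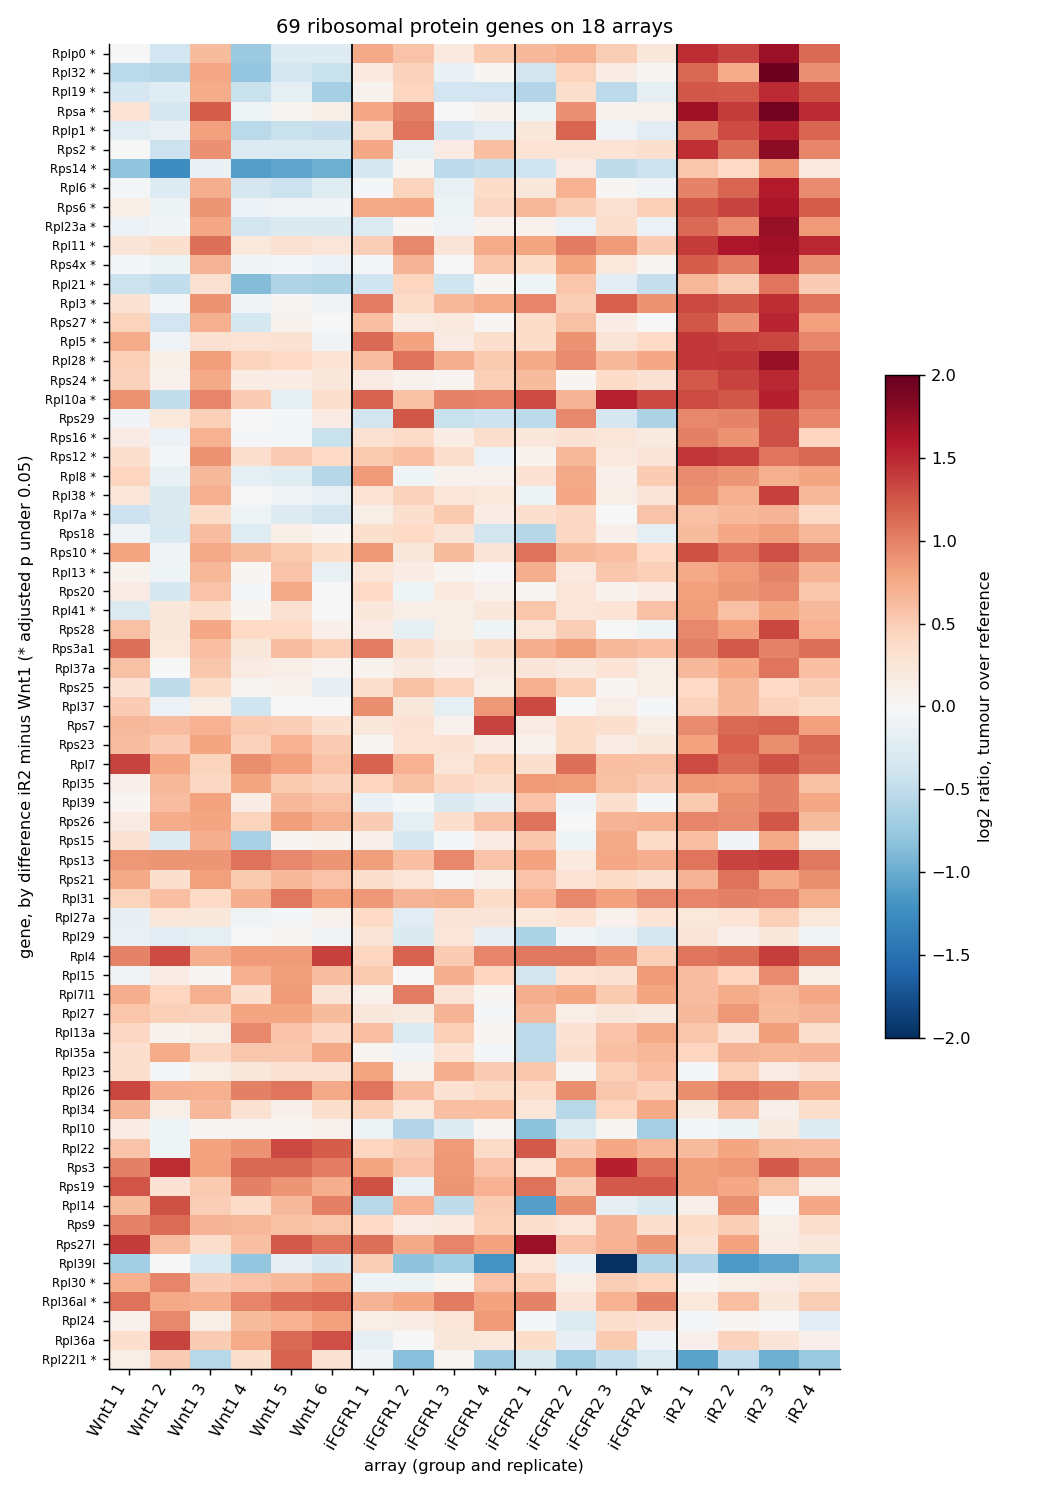
Log2 ratio of tumour to reference (colour) for the 69 genes (rows, ordered by the difference of iR2 from Wnt1, with an asterisk where the adjusted p was under 0.05) on the 18 arrays (columns, groups parted by black lines). The upper rows are red in the 4 iR2 columns and paler red in Wnt1 replicate 3, and the rows of Rpl22l1 and Rpl39l at and near the bottom are blue in iR2.

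Ribosomal protein genes were mostly higher in iR2 than in Wnt1. Of the 69, 27 rose (39.1%), against 3.91% of all genes, and 3 fell (4.35%), against 3.19% of all genes. The median difference was 0.47, against -0.05 over all genes, with 55 genes above 0 and 44 at an unadjusted p under 0.05. Here and below, counts at an unadjusted p or by sign are given without the share of all genes. All 4 iR2 arrays lay above all 6 Wnt1 arrays for 30 genes (43.5%), against 6.24% of all genes, and above all 14 other arrays for 17 (24.6%), against 0.598% of all genes. Without Wnt1 replicate 3, 31 genes rose, against 5.68% of all genes, and 5 fell. The share of all genes that fell in that fit is not given here. The 27 and 3 genes of the full fit were among the 31 and 5. The 4 added rises were Rpl37a, Rps18, Rps20 and Rps28 and the 2 added falls Rpl24 and Rpl36a. Both subunits took part, with 17 of 43 large-subunit genes risen and 3 fallen, and 10 of 26 small-subunit genes risen and none fallen, where 4 of the 26 differences were below 0.

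The stalk of the large subunit, which recruits elongation factors, is formed by Rplp0 and by the acidic proteins Rplp1 and Rplp2. Rplp0 stood at 1.48, 1.35, 1.71 and 1.14 on the iR2 arrays and between -0.74 and 0.63 in Wnt1 (median -0.26), with the highest value on replicate 3. The groups did not overlap. The difference was 1.59 ± 0.22 (SE), or 3.01-fold, with an adjusted p of 0.000816, and it was 1.75 without Wnt1 replicate 3. In iFGFR1 Rplp0 stood at 0.75, 0.57, 0.19 and 0.53, and in iFGFR2 at 0.65, 0.71, 0.49 and 0.23, between the other 5 Wnt1 arrays and iR2. Rplp1 stood at 1.04, 1.31, 1.54 and 1.17 in iR2, and at -0.54 to -0.14 in Wnt1 except for 0.83 on replicate 3. It rose by 1.43 ± 0.31 (adjusted p = 0.0114), and by 1.63 without that array.

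Rpsa, a small-subunit protein also known as the laminin receptor, had the highest mean ratio of the 69 genes in iR2. Its values were 1.70, 1.40, 1.93 and 1.49 in iR2. In Wnt1 the lowest was -0.34, the median 0.08 and the highest 1.22, again on replicate 3. It rose by 1.43 ± 0.28 (adjusted p = 0.00672), and by 1.63 without replicate 3.

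Among other small-subunit genes, Rps14, a small-subunit protein whose loss is known from a human anaemia, went from below to above the reference. It stood at 0.56, 0.39, 0.86 and 0.20 in iR2 and between -1.25 and -0.14 in Wnt1 (median -1.02), with no overlap. The rise was 1.39 ± 0.22 (adjusted p = 0.00199). Rps6, the substrate of the S6 kinases, stood at 1.24, 1.34, 1.63 and 1.22 in iR2, at 0.88 on Wnt1 replicate 3 and at -0.12 to 0.11 on the other Wnt1 arrays. It rose by 1.25 ± 0.21, or 2.38-fold (adjusted p = 0.00312).

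Rps2, which lines the entry of the messenger RNA channel, stood at 1.46, 1.12, 1.79 and 0.97 in iR2 and at -0.43 to 0.92 in Wnt1, with replicate 3 next to the lowest iR2 array. It rose by 1.39 ± 0.25 (adjusted p = 0.00367). Rps24, a gene of Diamond-Blackfan anaemia, stood at 1.23, 1.35, 1.50 and 1.18 in iR2 and at 0.08 to 0.76 in Wnt1 (median 0.20). Its rise of 1.01 ± 0.17 had an adjusted p of 0.00317, and no array of another group reached the iR2 values. Rps19, another gene of that anaemia, did not pass the test (difference -0.20, adjusted p = 0.702). With Wnt1 replicate 3 left out the rises were 1.54 for Rps14, 1.40 for Rps6, 1.59 for Rps2 and 1.10 for Rps24.

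Other large-subunit genes rose as well, among them Rpl19, Rpl11, Rpl28, Rpl32, Rpl3 and Rpl23a. Rpl19 stood at 1.25, 1.22, 1.49 and 1.27 in iR2, and at -0.66 to -0.20 in Wnt1 except for 0.75 on replicate 3, a rise of 1.50 ± 0.25 (adjusted p = 0.00305). Rpl11, which binds Mdm2 when it is free of the ribosome, stood at 1.41, 1.62, 1.70 and 1.51 in iR2, at 1.10 on Wnt1 replicate 3 and at 0.22 to 0.32 on the other Wnt1 arrays, a rise of 1.15 ± 0.19 (adjusted p = 0.00312). Rpl5, its partner in that complex, was higher by 1.03 ± 0.21 (adjusted p = 0.00842), and for this gene replicate 3, at 0.30, lay inside the Wnt1 range of -0.07 to 0.74. The Wnt1 arrays were thus tight for Rpl11 apart from replicate 3, and wide for Rpl5.

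Rpl23a, which sits at the exit of the peptide tunnel, stood at 1.13, 0.94, 1.75 and 0.85 in iR2, at 0.77 on Wnt1 replicate 3 and at -0.37 to 0.35 on the other 13 arrays. It rose by 1.23 ± 0.22 (adjusted p = 0.00405). Rpl32 stood at 1.16, 0.74, 1.96 and 0.91 in iR2. Replicate 3 of Wnt1, at 0.77, was above the lowest of these, so the groups overlapped, and the rise was 1.51 ± 0.28 (adjusted p = 0.00433). Rpl3, a protein near the peptidyl transferase centre, rose by 1.11 ± 0.21 (adjusted p = 0.00453), and Rpl28 by 1.02 ± 0.17 (adjusted p = 0.00312). Without Wnt1 replicate 3 the rises of these large-subunit genes were 1.68 for Rpl19, 1.29 for Rpl11, 1.39 for Rpl23a, 1.73 for Rpl32, 1.25 for Rpl3, 1.10 for Rpl28 and 1.04 for Rpl5.

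**Figure D3:**
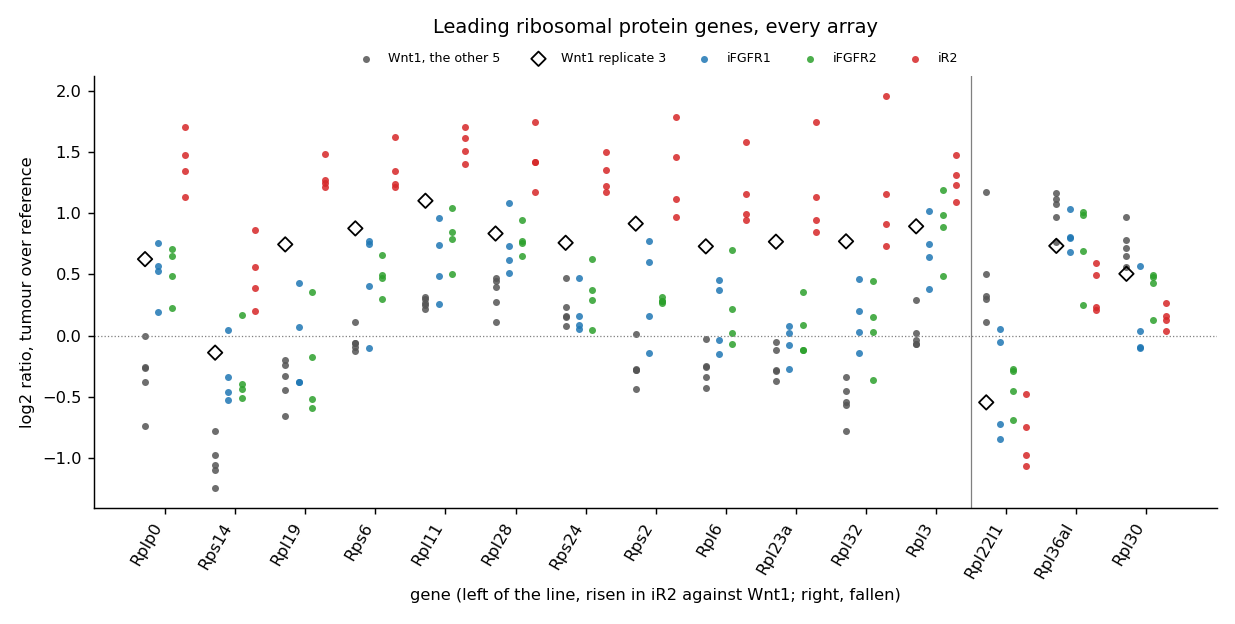
Log2 ratio of tumour to reference (y axis) on every array for the 12 risen genes with the smallest adjusted p in iR2 against Wnt1 (left of the line) and the 3 fallen genes (right), with the 4 groups side by side in colour and Wnt1 replicate 3 as an open diamond. For Rplp0 the iR2 arrays span 1.14 to 1.71, the diamond is at 0.63 and the other Wnt1 arrays end at -0.01; for Rpl22l1 the iR2 arrays span -1.07 to -0.48.

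The genes that fell in iR2 against Wnt1 were 2 paralogs and Rpl30. Rpl22l1, the paralog of Rpl22 whose messenger RNA Rpl22 is known to repress, stood at -1.07, -0.48, -0.98 and -0.75 in iR2. In Wnt1 it ranged from -0.55, on replicate 3, to 1.18 (median 0.31), and it fell by 1.13 on the log2 scale (SE 0.26, adjusted p = 0.0148). Rpl22 itself stood at 0.64, 0.79, 0.63 and 0.62 in iR2 inside the Wnt1 range of -0.08 to 1.31 (difference -0.12, adjusted p = 0.82). Rpl36al stood at 0.21, 0.60, 0.23 and 0.50 in iR2, below the Wnt1 range of 0.73 to 1.16, and fell by 0.59 (adjusted p = 0.0473). Its parent Rpl36a was lower in iR2 by 0.66 without passing the test (adjusted p = 0.0672). Rpl30, a large-subunit protein that controls its own splicing in yeast, stood at 0.04, 0.12, 0.16 and 0.27 against 0.51 to 0.97 in Wnt1 and fell by 0.55 (adjusted p = 0.0479). When Wnt1 replicate 3 was left out the differences were -1.30 for Rpl22l1, -0.64 for Rpl36al and -0.59 for Rpl30. The last 2 falls lay close to the threshold. With centring on the housekeeping list they no longer passed (adjusted p = 0.0691 for Rpl36al and 0.0855 for Rpl30), and of the 18 fits that each left out 1 array Rpl36al failed in 11 and Rpl30 in 12. For both genes these included the fits without each single iR2 array and without each Wnt1 array except replicate 3. Rpl22l1 failed in 2, without iR2 replicate 1 or 3.

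Other paralogs did not pass the test. Rps27l stood at 0.30, 0.80, 0.15 and 0.23 in iR2 and at 0.35 to 1.39 in Wnt1 (difference -0.50, adjusted p = 0.205), while its parent Rps27 rose by 1.04 ± 0.22 (adjusted p = 0.0106). Rpl39l, which is best known from testis, differed by -0.53 (adjusted p = 0.412) and its parent Rpl39, a protein of the peptide tunnel, by 0.33 (adjusted p = 0.297). The differences were 0.15 for Rpl7l1 (adjusted p = 0.713) and 0.39 for its parent Rpl7 (adjusted p = 0.273). Of the 5 paralogs measured, 2 fell and none rose, with 1 difference above 0, whereas 54 of the other 64 differences were above 0. A paralog and its parent are close in sequence, and the labels do not say whether their probes tell them apart.

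The same genes were set against the other receptor groups. Against iFGFR1, 23 of the 69 rose in iR2 (33.3%), against 4.81% of all genes, and none fell, against 6.84% of all genes. The median difference was 0.56. Of these 23, 18 had also risen against Wnt1. Against iFGFR2, 7 rose (10.1%), against 0.272% of all genes, and none fell, against 1.07% of all genes. The 7 were Rpl19, Rps24, Rps23, Rpl23a, Rpsa, Rps12 and Rps28, and the median difference over the 69 genes was 0.42. In both comparisons some genes were below 0 without passing the test, 8 against iFGFR1 and 12 against iFGFR2. The comparisons of iR2 share the iR2 arrays, so they are not independent of each other.

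Rps23, a protein of the decoding centre, differed in this setting but not against Wnt1. It stood at 0.81, 1.20, 0.93 and 1.15 in iR2, at 0.03, 0.27, 0.30 and 0.15 in iFGFR1, and at 0.07, 0.38, 0.15 and 0.23 in iFGFR2. The difference was 0.83 ± 0.16 against iFGFR1 (adjusted p = 0.00239) and 0.81 ± 0.16 against iFGFR2 (adjusted p = 0.0157). In Wnt1 it ranged from 0.46 to 0.79, below the iR2 arrays, and the difference of 0.42 missed the threshold (adjusted p = 0.0835).

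Rps28 stood at 0.96, 0.83, 1.34 and 0.70 in iR2 and at -0.18 to 0.49 in iFGFR1 and iFGFR2 together, with rises of 0.95 ± 0.20 (adjusted p = 0.00402) and 0.80 ± 0.20 (adjusted p = 0.0481). Rps12 stood at 1.41, 1.36, 1.07 and 1.15 in iR2 and at -0.12 to 0.67 in those 2 groups. Its rise against iFGFR1 was 0.91 ± 0.21 (adjusted p = 0.00886) and against iFGFR2 0.95 ± 0.21 (adjusted p = 0.0311). Rpl39 was higher in iR2 than in iFGFR1 by 0.97 ± 0.21 (adjusted p = 0.00472), with iFGFR1 values of -0.30 to -0.02 below all other groups except 2 iFGFR2 arrays at -0.07 and -0.03.

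**Figure D4:**
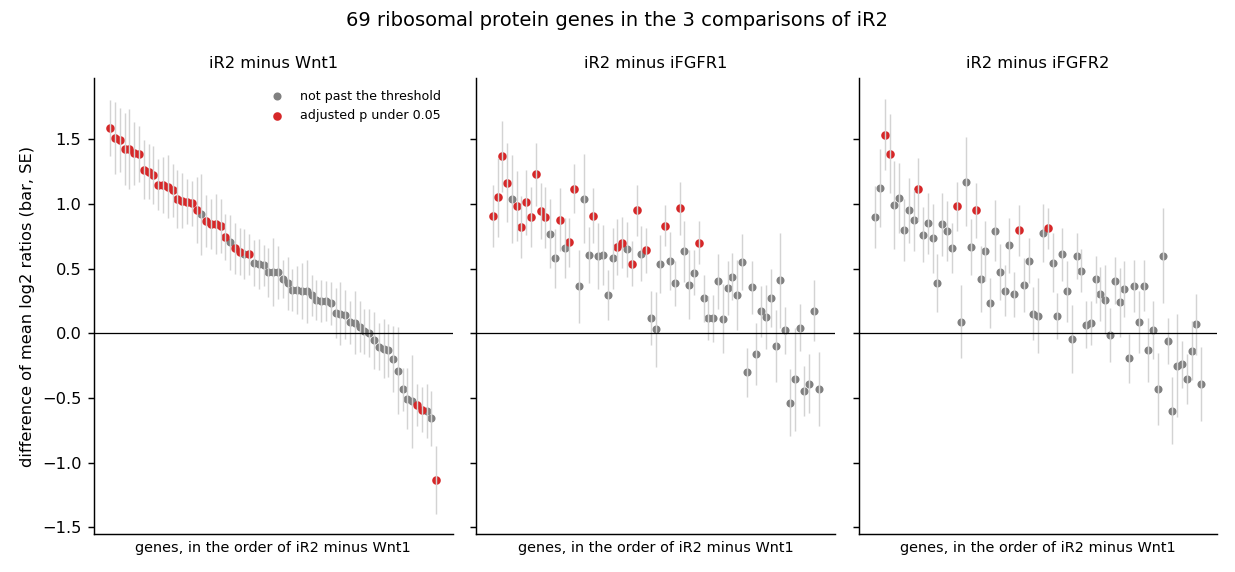
Difference of mean log2 ratios (y axis, points, with bars of 1 SE) of iR2 from Wnt1, iFGFR1 and iFGFR2 for the 69 genes, in the same gene order in each panel; red points have an adjusted p under 0.05. Red points number 30, 23 and 7 in the 3 panels, and the median differences are 0.47, 0.56 and 0.42.

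Few ribosomal protein genes passed the test when iFGFR1 or iFGFR2 was set against Wnt1. In iFGFR1, 1 of 69 rose, against 8.38% of all genes, and 3 fell, against 7.06% of all genes, with a median difference of -0.04. Rplp0 rose by 0.68 ± 0.22 (adjusted p = 0.0395). Rpl36a stood at -0.20, -0.01, 0.23 and 0.21 in iFGFR1 and at 0.34 to 1.35 in Wnt1, with no overlap, and fell by 0.83 (adjusted p = 0.0127). Rpl30 fell by 0.60 (adjusted p = 0.0197) and Rpl39 by 0.63 (adjusted p = 0.027). Rpl22l1 was lower by 0.70 without passing the test (adjusted p = 0.0738). Centring on the housekeeping list gave 0 rises and 17 falls here (24.6%), against 20.7% falls over all genes under the same centring, whose median it moved to -0.31. Quantile normalization gave 0 rises and 6 falls (8.7%, against 7.01% of all genes). Equal scaling of the arrays gave 0 and 5 (7.25%, against 5.95% of all genes). Without Wnt1 replicate 3, 6 genes rose and 4 fell, and without iFGFR1 replicate 1 only 1 gene passed. The count was 2 without Wnt1 replicate 5 or 6 or iFGFR1 replicate 3 or 4. The share of all genes that passed with an array left out is not given here, so these counts show no change particular to the 69.

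In iFGFR2, 0 of 69 passed by limma, against 3.43% of all genes, and 12 had an unadjusted p under 0.05. The share of all genes at an unadjusted p is not given here, so the 12 show no change particular to the 69. The 2 largest differences above 0 were 0.86 for Rpl10a (adjusted p = 0.0629) and 0.72 for Rpl3 (adjusted p = 0.0555). The 2 largest below 0 were -0.89 for Rpl14 (adjusted p = 0.131) and -0.74 for Rpl22l1. Without Wnt1 replicate 3, 5 genes rose (Rpl10a, Rpl3, Rpl7a, Rplp0 and Rps14) and 2 fell (Rpl22l1 and Rpl36a). Without Wnt1 replicate 1 the count was 2, and without iFGFR2 replicate 2 it was 3. For these fits too the share of all genes is not given here. Rpl10a stood at 1.30, 0.68, 1.53 and 1.32 in iFGFR2, at 1.30, 1.24, 1.56 and 1.09 in iR2 and at -0.49 to 0.97 in Wnt1, and it rose in iR2 by 0.95 (adjusted p = 0.0296). Between iFGFR2 and iFGFR1, 0 of 69 passed by limma, against 2.13% of all genes, and 0 had an unadjusted p under 0.05. The differences ran from -0.30 (Rpl29) to 0.42 (Rps15), with 0.37 for Rpl13 and -0.26 for Rpl24. Over the 4 groups together, the F test called 33 genes, against 19.6% of all genes.

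Batch checks on the iR2 arrays gave values that depended on how the title number and the narrow spread were treated. With the title number as a covariate, 2 genes rose in iR2 against Wnt1, Rpl5 and Rpl8, the median difference was 0.78 and 53 differences were above 0, with 35 at an unadjusted p under 0.05. That fit extends a line beyond the numbers of the other groups, and it called 52 of 16887 genes. In this check and the next, the share of all genes at an unadjusted p is not given. With Wnt1 replicate 3 and the iR2 arrays as 1 level of a block, a split chosen after seeing the data, iR2 is compared with replicate 3 alone. Then 0 genes passed by limma (lowest adjusted p 0.293), 4 had an unadjusted p under 0.05, the median difference was 0.25 and 55 of 69 were above 0, while 304 of all genes passed.

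The 27 risen genes were read directly on replicate 3 as a description. They were picked because iR2 was high against a group that holds replicate 3, so their values are partly set by that choice. Their median rise of iR2 over the other 5 Wnt1 arrays was 1.25, that of replicate 3 over the same 5 was 0.79 and that of iR2 over replicate 3 was 0.42. All 4 iR2 arrays lay above replicate 3 for 24 of the 27. For 22 of the 27 replicate 3 was nearer to the iR2 mean than to the mean of the other Wnt1 arrays. Over all genes the median of iR2 minus replicate 3 was -0.04.

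Each array was left out in turn. The share of all genes called in these fits is not given here, except for the rises in iR2 without Wnt1 replicate 3 above. Of the 30 genes called in iR2 against Wnt1, 15 were called in all 18 of these fits, among them Rplp0, Rpl19, Rpl11, Rps14, Rps6 and Rpsa. The number called ranged from 16 (without iR2 replicate 3) to 36 (without Wnt1 replicate 3), and it was 18 without iR2 replicate 1. In these last fits without an iR2 array none of the 3 falls passed. Against iFGFR1, 9 of the 23 rises were called in all 18 fits, with 9 called without iR2 replicate 3 and 12 without iFGFR1 replicate 3. Against iFGFR2, 0 of the 7 were called by limma in all 18 fits. There, no gene passed without iR2 replicate 2, 3 passed without iR2 replicate 1, 3 or 4 or iFGFR2 replicate 4, 4 passed without iFGFR2 replicate 1 or 3, and 15 passed without Wnt1 replicate 3. Replicate 3 of iR2 was the highest of its group for 40 of the 69 genes and replicate 4 the lowest for 35. The median SD of the 69 genes within a group was 0.18 in iR2, 0.27 in iFGFR1, 0.29 in iFGFR2 and 0.31 in Wnt1, or 0.23 without replicate 3. Over all genes the median SD was 0.17, 0.38, 0.39 and 0.33 in the same order of groups.

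Related gene lists were read in the same fit, described by counts and medians, and set against the 3.91% of all genes that rose and the 3.19% that fell in iR2 against Wnt1. Of 16 other TOP messenger RNAs, which encode elongation and initiation factors and related proteins, 6 rose, none fell and 10 did not pass, with 4 differences below 0 and a median difference of 0.57. The counts were 6 and 0 without Wnt1 replicate 3 as well. Pabpc1, the poly(A)-binding protein, rose by 2.15 (adjusted p = 0.000783), the elongation factors Eef1a1 by 1.16 (adjusted p = 0.00733) and Eef2 by 0.73 (adjusted p = 0.0369). The array medians of this list were 0.57 to 0.62 in iR2, 0.38 to 0.64 in iFGFR1, 0.32 to 0.67 in iFGFR2 and 0.03 to 0.32 in Wnt1, where replicate 3 stood at 0.20. By its median over this list replicate 3 thus lay within Wnt1, but not for each gene. It was above the other 5 Wnt1 arrays for 3 of the 6 risen genes, at 1.14 for Pabpc1 (others up to 0.41, iR2 from 1.91) and at 0.65 for Eef1a1 (others up to 0.02, iR2 from 0.58), with Tpt1 the remaining one. Fau, which encodes a ubiquitin-like protein fused to a small-subunit protein, rose by 0.85 (adjusted p = 0.0315), and by 1.03 without replicate 3, which stood at 0.615 for this gene beside iR2 at 0.33 to 0.95 and above the other Wnt1 arrays at up to -0.11.

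Genes that make or regulate ribosomes were read in the same way. Of 39 ribosome biogenesis genes, 4 rose and 1 fell in iR2 against Wnt1 (median difference -0.03), and 5 rose and 1 fell without Wnt1 replicate 3. The snoRNP proteins Dkc1 and Gar1 rose by 1.17 (adjusted p = 0.0128) and 1.16 (adjusted p = 0.02), and Nop10, a protein of the same particle, fell by 1.09 (adjusted p = 0.0236). Of 19 regulators, 3 rose and 1 fell (median difference 0.03), and 5 rose and 1 fell without replicate 3. In the full fit 15 of the 19 did not pass, and 9 differences were below 0. For 2 of the 3 risen regulators replicate 3 lay above the other 5 Wnt1 arrays, as it did for 1 of the 4 risen biogenesis genes. Myc, a transcription factor that drives ribosome production, rose by 0.63 (adjusted p = 0.0409). Mdm2, the ubiquitin ligase bound by Rpl5 and Rpl11, rose by 0.92 (adjusted p = 0.0223), and Eif4ebp2, a repressor of cap-dependent initiation, by 1.03 (adjusted p = 0.00933). Eif4e, the cap-binding factor it holds, fell by 0.88 (adjusted p = 0.037).

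Of 75 mitochondrial ribosomal protein genes, 2 rose and 3 fell in iR2 against Wnt1 (median difference -0.12). Of 73 oxidative phosphorylation subunits, 2 rose and 16 fell (median -0.31), and their array medians were -1.23 to -1.11 in iR2 and -0.96 to -0.83 in Wnt1. Of 39 proteasome genes 4 rose and 1 fell (median 0.06), and of 21 abundant housekeeping genes 2 rose and 1 fell (median 0.05). Of 22 proliferation genes 1 rose (median 0.21), and of 11 genes of tissue handling and early response 0 passed by limma, with 1 at an unadjusted p under 0.05. Without Wnt1 replicate 3 the rises and falls were 2 and 7 for mitochondrial ribosomal proteins, 3 and 18 for oxidative phosphorylation, 5 and 2 for the proteasome, 3 and 3 for housekeeping genes and 2 and 0 for proliferation.

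**Figure D5:**
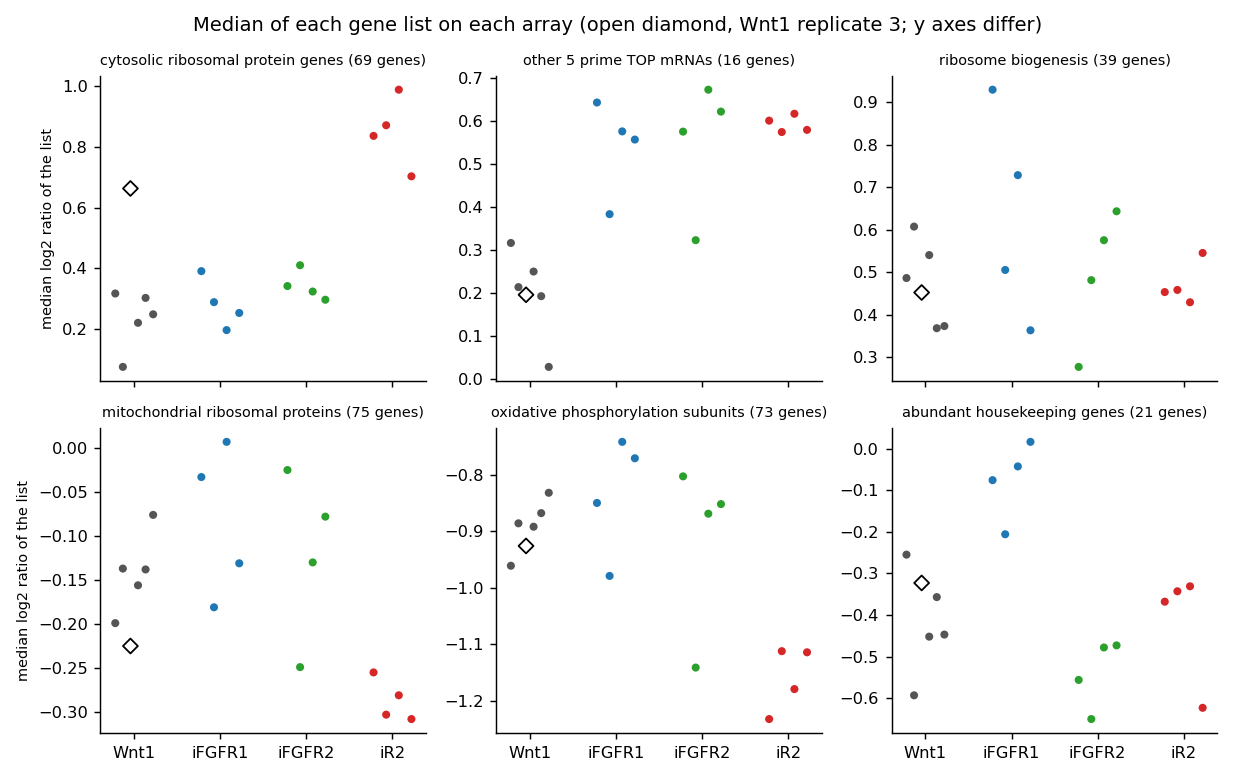
Median log2 ratio of 6 gene lists (y axes, which differ between panels) on each array, by group (x axis); a point is an array and the open diamond is Wnt1 replicate 3. For the ribosomal protein genes the diamond stands at 0.66 beside iR2 at 0.70 to 0.99, and for the median of the other TOP messenger RNAs it stands at 0.20 within Wnt1.

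Markers of other cell types were set beside these results. In iR2 against Wnt1, 2 of 4 T cell markers fell, and their mean log2 ratio was -1.11 to -0.76 in iR2, -0.61 to -0.09 in Wnt1, -0.47 to -0.23 in iFGFR1 and -0.61 to -0.34 in iFGFR2. Of 8 basal and myoepithelial markers 1 rose, while 6 differences were below 0 and the median difference was -0.16. Of all genes 3.91% rose and 3.19% fell in this comparison. Of 8 luminal markers 2 rose, with means of 2.89 to 2.99 in iR2 and 1.61 to 3.14 in Wnt1. None of the measured B cell, macrophage, neutrophil, fibroblast, endothelial, adipocyte, erythroid or skeletal muscle markers passed the test in this comparison, which does not show that these cells were equal. Without Wnt1 replicate 3, 1 adipocyte marker fell, 1 macrophage marker rose and 4 luminal markers rose. A log ratio has no zero, so no marker can be read as absent. The part of T cells and luminal cells in the ribosomal protein values was not tested.

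Ratios to the whole-mouse pool are not amounts, so the 69 genes cannot be ranked by abundance. Over all arrays the mean ratio was highest for Rpl4 (0.97) and lowest for Rpl39l (-0.59), and 63 of 69 means were above the reference. In Wnt1, 56 group means were above the reference, and in iR2 65. Rps3, a small-subunit protein also known in DNA repair, had the highest mean in Wnt1 at 1.10 ± 0.22 (SD, n = 6) and stood at 0.97 ± 0.17 (SD, n = 4) in iR2 (adjusted p = 0.764). For 6 genes 2 features were averaged, and these did not always agree. The features of Rpl27a correlated at -0.46 over the arrays, those of Rpl23 at -0.18 and those of Rpl30 at 0.07. The features of Rps18 differed between iR2 and Wnt1 by 1.26 and 0.14, those of Rps12 by 1.19 and 0.50, and those of Rplp0 by 1.42 and 1.75.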

How the data were processed

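RNA of 18 tumours was compared with a common reference on 2-colour arrays. The authors deposited 1 table of log ratios, read here as log2 of tumour over reference, for 22575 features. Per the labels' protocols, tumour RNA was extracted by column kit and reference RNA by TRIZOL. Not given in the sources used here are the scanner, the background correction, the normalization and how missing values were treated. No cell is empty, and array medians lie between -0.02 and 0.01. The number of arrays limits the precision.

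Features with 1 symbol (18658) were averaged per symbol to 16887 genes, all tested. Features with several symbols (30, of which 2 name a ribosomal protein gene) or none (3887) were left out. All 18 arrays entered 1 limma fit without covariates (lmFit, eBayes; limma 3.58.1, R 4.3.3), with Benjamini-Hochberg adjustment over all genes in each comparison and a threshold of 0.05. The fit was tested on simulated data. Alternatives covered normalization, centring, scaling, array weights, priors, the choice of feature, a variance filter, the arrays in the fit, the title number, the threshold and each array left out. A block for Wnt1 replicate 3 with iR2, and the fits without the replicates numbered 2 of iFGFR1 and iFGFR2, were added after seeing the data. Figures were drawn with matplotlib 3.10.9 in Python 3.11.15 (pandas 2.3.3). The genes and lists were chosen with earlier results of these data known.

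Genes were named by rule: in each comparison the 8 called genes with the smallest adjusted p in each direction and the 2 largest differences in each direction, the stalk genes and Rpsa, paralogs with their parents, Rps6, the 2 highest and 2 lowest means, and up to 3 genes whose features disagree. Rpl5, Rps29, Rpl7a, Rpl8, Rpl37a, Rps18, Rps20 and the list genes given with values were named after their values were seen.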

Additional observations from a re-analysis of the deposited data

Results flagged for a closer look

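The values of the 38 named genes were searched for an array far from the rest of its group, in 156 groups of values. Chance flags about 1 in 20 groups, and 10 values were found, all of single genes and none of the array median. Of these, 7 belonged to Wnt1 replicate 3, each above the other Wnt1 arrays. The log2 ratio there was 1.103 for Rpl11, 0.746 for Rpl19, 0.768 for Rpl23a, 0.771 for Rpl32, 0.828 for Rplp1, 0.916 for Rps2 and 0.877 for Rps6. The highest of the other 5 Wnt1 arrays was 0.319 for Rpl11 and 0.11 for Rps6. The genes share the array, so these are not separate observations. The other 3 values were 0.844 for Rpl24 on iFGFR1 replicate 4 (other arrays of the group up to 0.238), 0.167 for Rps14 on iFGFR2 replicate 2 (others up to -0.399) and 0.791 for Rpl22 on iR2 replicate 2 (others 0.62 to 0.636).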

How the results depend on the processing

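Counts below are ribosomal protein genes called of 69, and medians are differences over these genes. Where no share of all genes stands beside a count, that share is not given here. The 27 rises of iR2 over Wnt1 were all called after quantile normalization, array-median centring, housekeeping centring and equal scaling. Of the 3 falls, Rpl36al and Rpl30 were lost under housekeeping centring, the feature with the highest mean and the variance filter. Array weights gave 46 calls in iR2 against Wnt1, 37 against iFGFR1, 28 against iFGFR2 and 2 in iFGFR2 against Wnt1. The title number as a covariate gave 2 (median 0.78), 5 (0.70) and 0 (0.67) in the comparisons of iR2 with Wnt1, iFGFR1 and iFGFR2, 2 in iFGFR2 against Wnt1 and 11 in the F test. The block of Wnt1 replicate 3 with iR2, added after seeing the data, gave 0 (0.25), 0 (0.19) and 0 (0.12) for iR2, 10 in iFGFR1 and 7 in iFGFR2 against Wnt1, and 7 in the F test. Under it the differences of iR2 from iFGFR1 turned for Rpl32 (-0.254), Rplp0 (-0.0492), Rps14 (-0.0693), Rps2 (-0.18), Rps6 (-0.0252) and Rpsa (-0.0522). Housekeeping centring gave 17 falls in iFGFR1 against Wnt1 (24.6%, against 20.7% of all genes, median -0.36). It gave 4 rises in iFGFR2 against Wnt1 (5.8%, against 5.9% of all genes). Between iFGFR2 and iFGFR1 it gave 22 rises (31.9%, against 22.8%, median 0.50). In iR2 47 rose against iFGFR1 (68.1%, against 14.8%, median 0.90) and 4 against iFGFR2 (5.8%, against 0.148%). The F test called 54. This centring moved the median of all genes to -0.31 in iFGFR1 against Wnt1 and to 0.45 between iFGFR2 and iFGFR1. Equal scaling gave 42 rises in iR2 against iFGFR1 (60.9%, against 6.96%, median 0.75) and 31 against iFGFR2 (44.9%, against 2.21%, median 0.59). It gave 1 in iFGFR2 against Wnt1. Quantile normalization gave 3 in iR2 against iFGFR2 and 1 in iFGFR2 against Wnt1, as did the feature with the highest mean and features one by one (1 each). Keeping the more variable genes left 29 of the 69, with medians of 1.04, 0.88 and 0.80 for iR2 against Wnt1, iFGFR1 and iFGFR2 (4 called in the last), 0.25 for iFGFR1 (1 called) and 0.29 for iFGFR2 against Wnt1. In iFGFR1 against Wnt1, 1 was called with the title number in 2 runs as a block, 1 with the arrays compared alone, and 0 within numbers under 3500 (median 0.11) or over 3500, where a lone array is assumed to vary like the others. Without the replicates numbered 2 of iFGFR1 and iFGFR2, 4 were called in iFGFR2 against Wnt1. Without these and Wnt1 replicate 3, 12 were called in iFGFR1 (median 0.11) and 8 in iFGFR2 against Wnt1, and 22 in iR2 against iFGFR2. A threshold of 0.01 gave 15, 8 and 1 for iR2 against Wnt1, iFGFR1 and iFGFR2, 0 in iFGFR1 against Wnt1 and 17 in the F test, and one of 0.10 gave 12 in iFGFR1 and 4 in iFGFR2 against Wnt1 and 22 in iR2 against iFGFR2. With each array left out, calls ranged from 16 to 36, 9 to 28 and 0 to 15 for iR2 against Wnt1, iFGFR1 and iFGFR2, from 1 to 10 in iFGFR1 and from 0 to 7 in iFGFR2 against Wnt1. Apart from fewer genes or arrays, or another threshold, the cause was not tested. No paired analysis was possible because the replicate numbers were given in accession order and pair no samples. Signal over background could not be judged from ratios.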
